A study of Mus musculus with 16 samples.

Results

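The genes described here are the insulin-like growth factor (IGF) binding proteins Igfbp2, Igfbp3, Igfbp4 and Igfbp5, the IGF1 receptor Igf1r, and the IGF2 mRNA-binding proteins Igf2bp1, Igf2bp2 and Igf2bp3. They are 8 of the 24320 gene names in the table of the Pml knockout and 8 of the 24394 names in each of the tables for arsenite and for Trim33. They were taken by name. The family was chosen by the FPKM of Igfbp4, higher in the Pml knockout than in wild type, so their values in that comparison are a description and carry no test. IGF-binding proteins are secreted proteins that hold IGF1 and IGF2 outside the cell and set how much of them reaches the receptor, a tyrosine kinase that signals through IRS adaptors and PI3K to AKT. IGF2 mRNA-binding proteins share only part of the name: they are cytoplasmic proteins with RRM and KH domains that bind Igf2 and many other mRNAs and affect their stability, location and translation. They are abundant in the embryo and in early stem cells, and in mammals their mRNAs are known targets of the let-7 microRNAs, which the LIN28 proteins hold back.

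RNA-seq was done on mouse embryonic stem (ES) cells of the line E14Tg2a.IV, grown without feeders in serum medium with leukemia inhibitory factor, in 8 groups of 2 libraries. The first table, in FPKM (fragments per kilobase of transcript, scaled to the mapped fragments of the library), holds untreated cells labelled Pml KO and untreated cells labelled WT. The second, in RPKM (the same measure per read), holds WT cells given 200 µM sodium arsenite for 2 h and untreated WT cells. The third, also read as RPKM, holds cells labelled Trim33 KO or WT that received 50 ng/ml activin A, a ligand of the TGF-beta family, and cells of both labels that received 10 µM SB431542, an inhibitor of the receptors activin signals through, each for 2 h. Pml encodes the protein that builds PML nuclear bodies, Trim33 encodes a chromatin-binding partner of SMAD proteins, and arsenite is an oxidative stress agent that acts on PML. The labels do not tell how the knockouts were made or from how many clones. Nor do they tell whether replicates are separate cultures, and each p-value therefore covers the spread of these libraries alone, which may be technical.

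The labels were checked on the targeted genes. Pml mRNA was at 32.0 and 33.5 FPKM in the libraries labelled Pml KO, against 49.8 and 45.1 FPKM in WT. Trim33 was at 2.53 and 2.79 RPKM in the libraries labelled Trim33 KO with activin A, against 20.1 and 23.5 RPKM in those labelled WT with activin A. With SB431542 it went against the labels, at 18.3 and 24.6 RPKM in the libraries labelled KO and 2.94 and 2.44 RPKM in those labelled WT. Every direction drawn with SB431542 therefore rests on labels that Trim33 contradicts. The Y-linked gene Eif2s3y followed the same arrangement. The 4 Y-linked genes summed to 0 to 0.143 RPKM in the libraries low in Trim33 and to 56.0 to 59.8 RPKM in those high in it. Trim33 level and any line difference that goes with Y-linked expression therefore cannot be told apart. Depth read from the steps of low values was 46.7 to 48.5 M reads (M, 1e6) in the arsenite table and 31.2 to 39.5 M in the Trim33 table. It is unknown in the Pml table. The 8 pluripotency markers summed to 7352 to 7588 FPKM in Pml KO and 7593 to 7647 FPKM in WT libraries, and to 2384 to 2469 RPKM with arsenite against 5051 to 5116 RPKM in untreated cells. Of the 8 markers, 6 were lower in Pml KO without overlap and 3 of them fell by limma (Tdgf1, Klf4 and Esrrb, the last not after quantile scaling). In the Trim33 table the same sum lay between 3105 and 4156 RPKM in all 8 libraries, but single markers differed in both directions. With activin A, 2 of the 8 were higher and 3 lower in KO than in WT without overlap. With SB431542, 2 were higher and 2 lower in the libraries labelled KO. Zfp42 and Nanog are the 2 higher with activin A and the 2 lower with SB431542. Zfp42 was at 90.2 and 80.8 RPKM in KO and 41.6 and 30.9 RPKM in WT with activin A, and at 45.2 and 32.3 RPKM in the libraries labelled KO and 94.3 and 76.7 RPKM in those labelled WT with SB431542. Nanog was at 321 and 233 RPKM in KO and 152 and 118 RPKM in WT with activin A, and at 119 and 67.1 RPKM in the libraries labelled KO and 263 and 167 RPKM in those labelled WT with SB431542. The part of these markers in the members' levels was not tested.

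The promoters of Igfbp4, Igfbp3 and Igfbp5, which hold a TATA-type motif, are shown first, with that of Igf2bp2, which holds none. They were picked by their differences in these data, for the Igfbp genes in the comparison that chose the family. No link between motif and level is therefore read. Igf1r and Igf2bp1 were also higher in the Pml knockout, but the Igf1r window held no such motif and Igf2bp1 had no window. Each line gives the 250 bases before the RefSeq start in GRCm38.p6, 5′ to 3′ on the gene's strand, with the TATA-type motif in capitals. Igfbp4 is read from chr11:99040994-99041243 on the plus strand, Igfbp3 from chr11:7213924-7214173, Igfbp5 from chr1:72874866-72875115 and Igf2bp2 from chr16:22163300-22163549, all 3 on the minus strand.
Igfbp4: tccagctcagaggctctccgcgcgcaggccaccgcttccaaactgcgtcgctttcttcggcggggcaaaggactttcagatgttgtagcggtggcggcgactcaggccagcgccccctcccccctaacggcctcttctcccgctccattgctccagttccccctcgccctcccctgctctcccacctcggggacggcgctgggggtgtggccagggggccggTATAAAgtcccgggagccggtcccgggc
Igfbp3: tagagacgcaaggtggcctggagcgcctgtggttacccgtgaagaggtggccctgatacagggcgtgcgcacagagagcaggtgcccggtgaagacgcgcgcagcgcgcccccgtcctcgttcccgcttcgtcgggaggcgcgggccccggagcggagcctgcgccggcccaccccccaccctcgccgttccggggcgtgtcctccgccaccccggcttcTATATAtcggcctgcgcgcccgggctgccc
Igfbp5: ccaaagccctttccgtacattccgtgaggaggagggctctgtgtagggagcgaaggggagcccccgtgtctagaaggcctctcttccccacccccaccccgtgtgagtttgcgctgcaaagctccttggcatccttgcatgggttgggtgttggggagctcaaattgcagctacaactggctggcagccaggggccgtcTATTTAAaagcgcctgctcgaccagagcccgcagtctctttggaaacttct
Igf2bp2: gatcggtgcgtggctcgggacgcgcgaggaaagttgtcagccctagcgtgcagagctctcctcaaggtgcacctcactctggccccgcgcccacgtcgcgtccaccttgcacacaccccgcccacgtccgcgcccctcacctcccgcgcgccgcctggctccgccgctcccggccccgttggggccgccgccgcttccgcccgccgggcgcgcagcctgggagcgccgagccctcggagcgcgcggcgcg
The motif TATAAA starts 28 bases before the Igfbp4 start, TATATA 30 bases before the Igfbp3 start and TATTTAA 51 bases before the Igfbp5 start. These spellings were chosen after the windows of the members had been read, so the shares below are background and no comparison. On both strands TATAAA was in 12.4%, TATATA in 5.25% and TATTTAA in 4.18% of 32841 RefSeq windows of this length, and at least 1 of them on the gene's strand in 13.3%. TATATA and TATAAA can overlap each other. In the last 60 bases, at least 1 was present in 4.53% of windows. The 8 windows of the 7 members that matched (Igfbp2 has 2) held none of the 3 motifs outside Igfbp3, Igfbp4 and Igfbp5. The GC box GGGCGG, in 32.7% of all windows on either strand, was in 1 of the 2 Igfbp2 windows and in those of Igf1r and Igf2bp2. It was in none of those with a TATA-type motif. The Igf2bp2 window held 40 CpG pairs, a number that 1.31% of windows reach, against a median of 6. Of 4 further motifs searched on both strands, the AP-1 motif TGANTCA (in 6.75% of all windows) was in 1 Igfbp2 window. The antioxidant response element core TGANNNNGC (35.2%) was in the windows of Igfbp3 and Igfbp5. The E-box CACGTG (6.02%) was in the other Igfbp2 window and in that of Igf2bp3, and CCAAT (33.9%) in that of Igf2bp3. A match says only that the letters are there.

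The mRNAs also differ in their matches to let-7, the microRNA family tied to IGF2 mRNA-binding proteins. The mature let-7a-5p strand is shown with its seed (bases 2 to 8) in capitals, at chr13:48538239-48538260 on the minus strand, from RefSeq GRCm38.p6.
let-7a-5p: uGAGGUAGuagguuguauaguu
Its 7-base seed match CTACCTC was searched on the sense strand of the 3′ UTR of each gene's longest coding transcript in GENCODE vM21, which is on GRCm38. Igf2bp1 held 4 matches in 6337 bases, Igf1r 2 in 7267, Igf2bp2 1 in 1784, Igf2bp3 1 in 2119 and Igfbp5 1 in 4445. The 3′ UTRs of Igfbp2, Igfbp3 and Igfbp4 held none. Of 20922 coding genes with a 3′ UTR, 8.87% had at least 1 match and 0.0574% had at least 4. Their median 3′ UTR had 941 bases, against 6337 in Igf2bp1, and the share with at least 4 takes no account of length. Of the 6086 genes whose 3′ UTR is as long as that of Igf2bp2 or longer, 18.99% had at least 1. The sites of the Igf2bp genes are given below with the seed match in capitals and 20 bases around it.
Igf2bp1, chr11:95961774-95961800: gctgtgcgaagtaaaCTACCTCaaggt
Igf2bp1, chr11:95959353-95959379: cagcagtgctattaaCTACCTCagccc
Igf2bp1, chr11:95958759-95958785: gtataaatggatgaaCTACCTCagtcc
Igf2bp1, chr11:95958136-95958162: acttttggttttaatCTACCTCttagc
Igf2bp2, chr16:22059469-22059495: acacacaaataaaagCTACCTCaggtg
Igf2bp3, chr6:49086783-49086809: tgcatttttactcaaCTACCTCaggta
All 6 sites are on the minus strand. MicroRNAs were not measured in these tables, so nothing is said of their levels.

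The genes lie at separate places in the genome, apart from the neighbours Igfbp2 and Igfbp5. On chromosome 1, Igfbp2 (chr1:72824503-72852474, plus strand, 4 exons) and Igfbp5 (chr1:72857932-72874884, minus strand, 4 exons) face each other tail to tail, 5457 bases apart. On chromosome 11, Igfbp4 (chr11:99041244-99054392, plus strand, 4 exons) is 3.04 Mb from Igf2bp1 (chr11:95957163-96005940, minus strand, 15 exons), and Igfbp3 (chr11:7206086-7213923, minus strand, 5 exons) is far from both. Igf1r (chr7:67952827-68233668, plus strand, 21 exons), Igf2bp2 (chr16:22059009-22163299, minus strand, 16 exons) and Igf2bp3 (chr6:49085223-49214957, minus strand, 15 exons) stand alone. No pair of members shared a run of 50 identical bases in its longest transcripts. Levels per length had a similar order in each table. Igfbp2 was highest, above 98.7% of all names in the Pml table, 99.0% in the arsenite table and 97.9% in the Trim33 table. Igf2bp1 came next, above 94.7%, 95.8% and 96.9% of names in the same tables. Igfbp5 was lowest of the members in each table. Tables were normalized separately, so levels are compared only within a table.

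**Figure D1:**
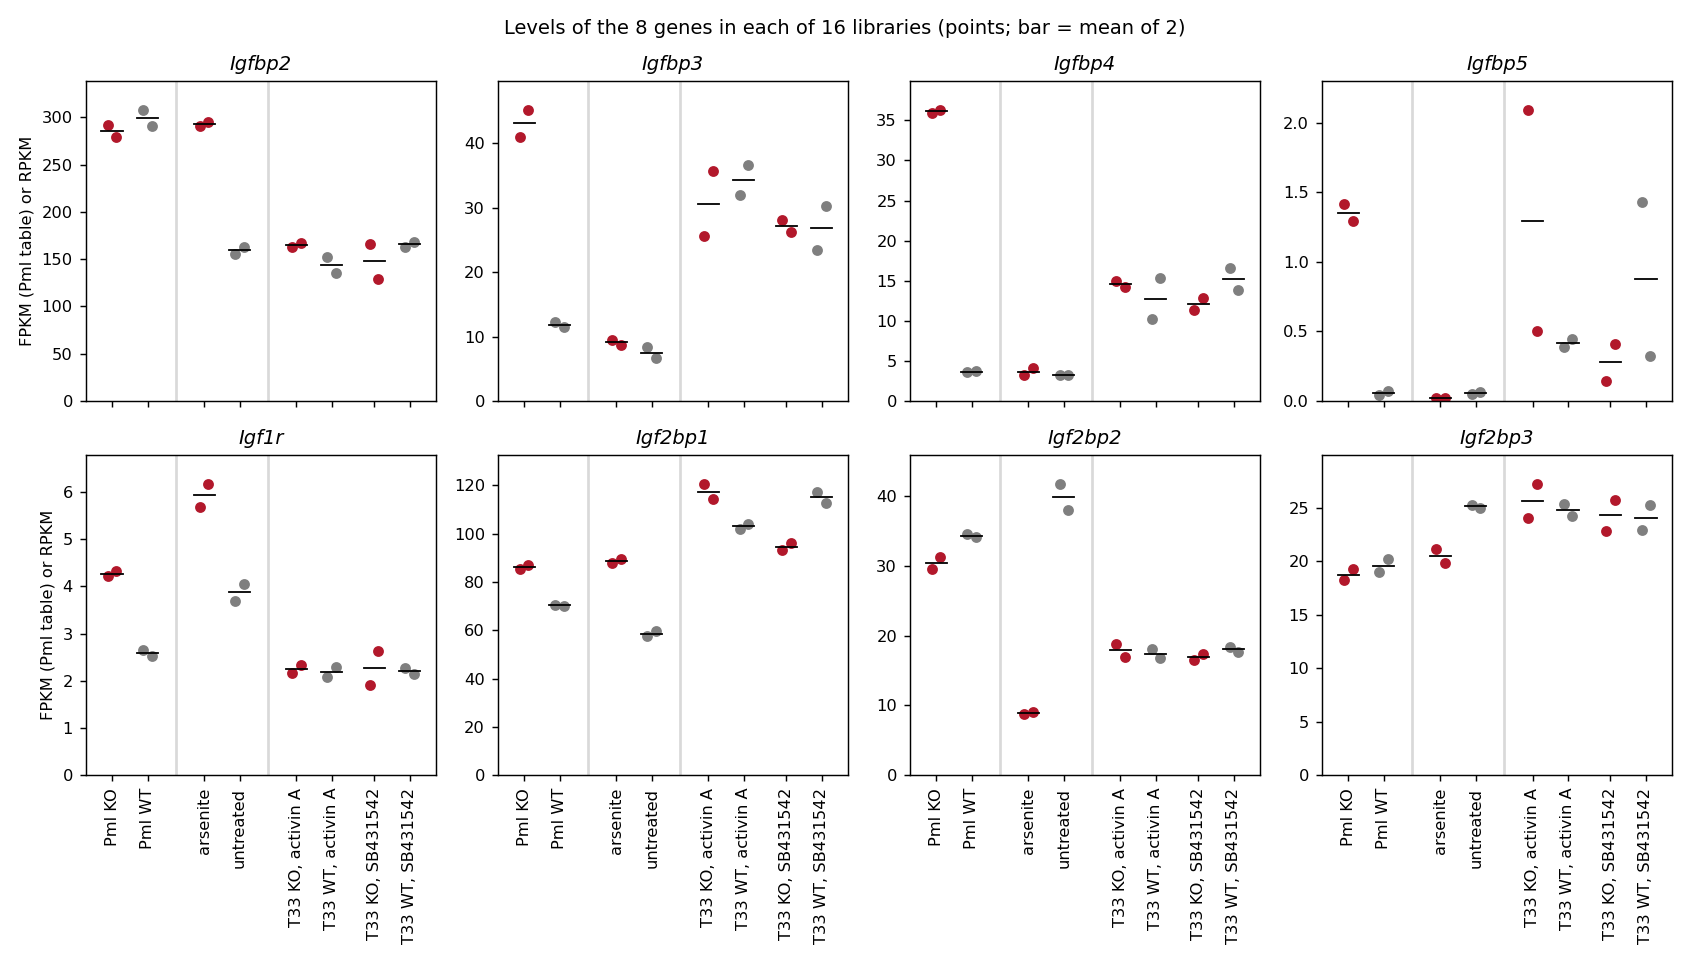
Level of each gene in each of the 16 libraries, in FPKM for the Pml table and RPKM for the other tables (vertical axis, from 0, with its own range per gene); red marks KO or arsenite libraries, grey marks WT or untreated libraries, bars are means of 2, and T33 stands for the Trim33 table. Igfbp3, Igfbp4 and Igfbp5 stand higher in Pml KO than in WT, and Igf2bp2 stands at 8.74 and 9.12 RPKM with arsenite against 41.6 and 37.9 RPKM in untreated cells.

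In the Pml knockout the secreted binding proteins did not move together. Igfbp4, whose protein holds back IGF action until the protease PAPP-A cuts it, was at 36.0 and 36.3 FPKM in Pml KO, against 3.63 and 3.71 FPKM in WT. That is a mean of 36.1 ± 0.229 FPKM in KO and 3.67 ± 0.0536 FPKM in WT (SD, n = 2 each), a ratio of 9.85. The KO libraries lay far above the WT libraries, with no overlap. Igfbp3, which encodes the main IGF carrier of blood plasma, was at 41.0 and 45.2 FPKM in KO, against 12.2 and 11.5 FPKM in WT, a ratio of 3.64. Both KO libraries were again above both WT libraries. Igfbp5, known best in bone, muscle and mammary gland, was at 1.42 and 1.29 FPKM in KO and at 0.0401 and 0.0742 FPKM in WT. It was close to undetected in WT and low, but present, in KO. Igfbp2, by contrast, was at 292 and 279 FPKM in KO and 308 and 291 FPKM in WT, and the groups overlapped. On the scale log2(FPKM + 1) the differences, KO minus WT, were 2.99 for Igfbp4, 1.78 for Igfbp3, 1.15 for Igfbp5 and -0.07 for Igfbp2.

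The receptor and the mRNA-binding proteins differed less between Pml KO and WT. Igf1r was at 4.21 and 4.32 FPKM in KO, against 2.65 and 2.53 FPKM in WT, a ratio of 1.65 with no overlap. Igf2bp1 was at 85.5 and 86.9 FPKM in KO, against 70.6 and 70.0 FPKM in WT, a ratio of 1.23. Here too every KO library was above every WT library. Igf2bp2 was at 29.6 and 31.2 FPKM in KO and 34.5 and 34.2 FPKM in WT, lower in KO without overlap, with a log2 difference of -0.17. Igf2bp3 was at 18.2 and 19.2 FPKM in KO and 18.96 and 20.2 FPKM in WT, and the groups overlapped. All 8 members passed the filter on low values (at least 1 FPKM in at least 2 libraries), Igfbp5 through its KO libraries alone. Groups did not overlap for 6 of the 8, where 69.4% of the 11648 genes tested did not overlap. In 5 of the 8 the KO libraries were both above WT, as in 31.4% of genes. For 3 of the 8 the log2 difference was at least 1, as in 2.99% of genes. Nothing is read from these shares, since the comparison served to choose the family.

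Genes of other cell types differed between the same libraries. Of 10 trophectoderm markers, 9 were higher in both Pml KO libraries than in both WT libraries, and their summed level was 713 to 722 FPKM in KO against 37.7 to 40.9 FPKM in WT. Of 11 fibroblast and mesenchyme markers, 10 were higher, with sums of 537 to 567 FPKM in KO against 107 to 108 FPKM in WT. Of 10 primitive endoderm markers, 2 were higher and 8 lower, with sums of 62.4 FPKM in both KO libraries against 43.9 to 46.8 FPKM in WT. The 4 Y-linked genes summed to 0.946 to 1.40 FPKM in KO and 22.4 to 26.6 FPKM in WT. The Pml label and any line difference that goes with Y-linked expression therefore cannot be told apart. The part of the other markers in the levels of Igfbp3, Igfbp4 and Igfbp5 was not tested. In bulk RNA, fewer cells of a type and less RNA per cell cannot be told apart.

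Other genes of the pathway were tested in the same libraries with limma over all 11648 genes, where 35.5% passed an adjusted p of 0.05, 16.6% upward and 18.9% downward. Igf2, the ligand whose mRNA gave the IGF2 mRNA-binding proteins their name, was at 99.1 and 104 FPKM in Pml KO, against 2.63 and 2.26 FPKM in WT. It rose by 4.90 ± 0.08 on the log2 scale (SE, limma). Of the 7 listed ligands and receptors outside the family, 3 could be tested and 2 rose, the other being Igf2r, the receptor that clears IGF2 (13.02 and 13.8 FPKM in KO, against 10.5 and 9.80 FPKM in WT). Igf1 was at 0.0465 and 0.0153 FPKM in KO and 0.0569 and 0.0136 FPKM in WT and was not tested. Of 6 testable genes among other binding proteins and their proteases, 2 rose and 1 fell. Igfbp7, a low-affinity relative, was at 10.1 and 8.71 FPKM in KO, against 1.31 and 1.27 FPKM in WT. Ctsd, a lysosomal protease, also rose, by 0.55 ± 0.05 on the log2 scale. Stc2, an inhibitor of the protease PAPP-A, was at 7.23 and 7.82 FPKM in KO, against 23.3 and 24.6 FPKM in WT, and fell by 1.55 ± 0.07.

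Of 23 testable genes of receptor signalling, 4 rose and 3 fell with the Pml knockout. Grb10, an imprinted adaptor that restrains the insulin and IGF1 receptors, was at 4.16 and 4.96 FPKM in KO, against 48.2 and 45.4 FPKM in WT. It fell by 3.11 ± 0.09 on the log2 scale, with no overlap. Irs2, an adaptor of the receptor, rose by 0.94 ± 0.10, and Akt1 rose by 0.66 ± 0.06. The list also holds Pdk1, which fell by 0.84 ± 0.05. Pdk1 encodes a pyruvate dehydrogenase kinase, whereas the kinase of this pathway is Pdpk1. Of 10 testable genes around LIN28, let-7 and HMGA proteins, 2 rose and 2 fell. Hmga2, a chromatin protein known in the mouse to act upstream of Igf2bp2, was at 37.0 and 41.1 FPKM in KO, against 3.58 and 3.49 FPKM in WT, and rose by 3.14 ± 0.08. Lin28a rose by 0.20 ± 0.05, while Lin28b was at 6.69 and 7.78 FPKM in KO and 6.41 and 6.44 FPKM in WT and did not pass. Hmga1 fell by 0.43 ± 0.10 and Drosha fell by 0.29 ± 0.05. Of 7 testable mRNAs reported as bound by these proteins, 3 rose and 3 fell. Beside Igf2, the cell surface receptor gene Cd44 rose to 2.83 and 3.79 FPKM in KO, against 0.0973 and 0.1001 FPKM in WT, and the prostaglandin synthase gene Ptgs2 rose by 1.25 ± 0.12. Both were under 1 FPKM in both WT libraries and passed the filter only through KO, so their calls add nothing to the count of the list. Btrc, which encodes an F-box protein, fell by 0.33 ± 0.09. Adjusted p-values of the genes named here as changed lay at or below 0.0189.

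**Figure D2:**
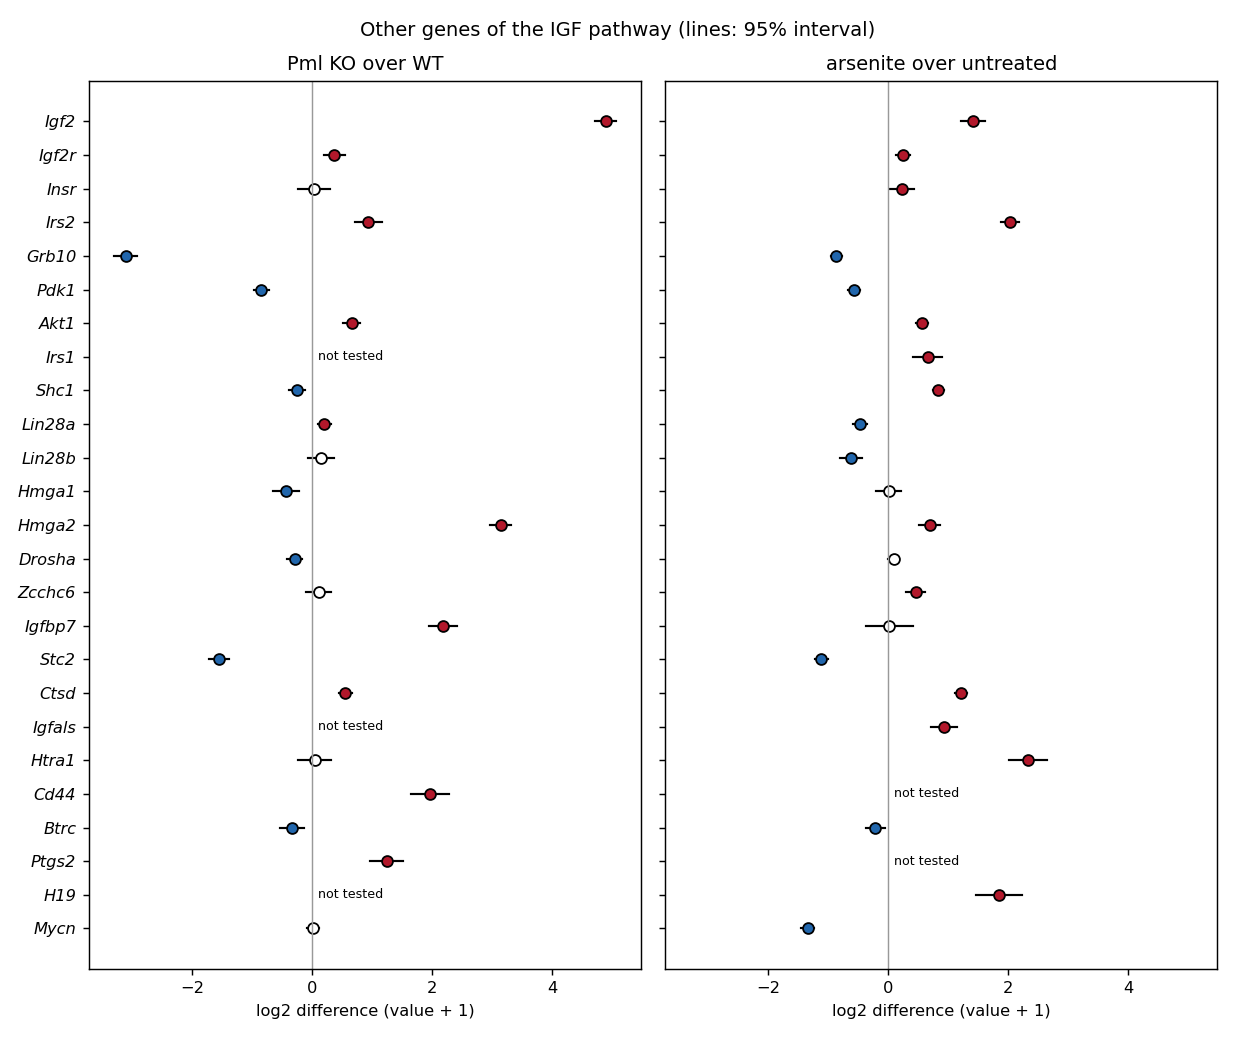
Log2 difference (value + 1) of other genes of the IGF pathway, in Pml KO over WT (left) and in arsenite over untreated cells (right); points are limma estimates, lines their 95% intervals, red means higher and blue lower at an adjusted p under 0.05, white means not past it. Igf2 is the highest point on the left at 4.90, and Htra1 the highest on the right at 2.33.

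Arsenite for 2 h gave another arrangement, in which Igf2bp2 fell and Igfbp2, Igf1r and Igf2bp1 rose. Of the 7 members tested, 5 passed an adjusted p of 0.05, 3 upward and 2 downward. Of all 12136 genes tested 67.7% passed, 40.7% upward and 27% downward, so the members' share is near that of all genes. Groups did not overlap for 7 of the 8 members, where 84.5% of genes did not. The members' median log2 difference was 0.26, against 0.08 over all genes. The split over all genes depended on the scaling: 4939 genes were higher and 3282 lower on the deposited values, but 3467 higher and 4813 lower after scaling by a trimmed mean of M values (TMM). TMM moved the median of all genes to -0.06. All 8 pluripotency markers fell with arsenite, also after TMM and quantile scaling. Trophectoderm markers summed to 121 to 123 RPKM with arsenite against 38.4 to 38.9 RPKM in untreated cells, and fibroblast and mesenchyme markers to 163 to 165 RPKM with arsenite against 70.1 to 70.2 RPKM. Of 10 trophectoderm markers 8 were higher without overlap, as were 8 of 11 fibroblast and mesenchyme markers and 8 of 10 primitive endoderm markers. Elf5 of trophectoderm and Postn of fibroblasts were under 0.1 RPKM in all 4 libraries. The Y-linked genes summed to 35.5 to 38.1 RPKM with arsenite and 43.7 to 47.4 RPKM in untreated cells. The part of these differences in the members' levels was not tested.

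Igf2bp2, which in mouse and human is tied to metabolism and binds mRNAs of mitochondrial proteins, was at 8.74 and 9.12 RPKM with arsenite, against 41.6 and 37.9 RPKM in untreated cells. Mean levels were 8.93 ± 0.267 RPKM with arsenite and 39.8 ± 2.64 RPKM in untreated cells (SD, n = 2 each), so the untreated level was 4.46 times that with arsenite. The arsenite libraries were both far below the untreated ones. The log2 difference was -2.04 ± 0.06 (SE; 95% interval -2.18 to -1.90; limma adjusted p = 4.27e-07). A fall of at least 2-fold past the same threshold was found for 2.18% of genes. The reads behind these values were estimated at 1592 and 1700 with arsenite and 7869 and 7063 in untreated cells, so counting error is small beside the difference. Igf2bp3, an oncofetal relative, was at 21.1 and 19.8 RPKM with arsenite, against 25.2 and 25.0 RPKM in untreated cells. It fell by 0.28 ± 0.05 on the log2 scale (adjusted p = 0.00173).

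Igf2bp1, which in the mouse embryo is needed for normal growth, moved the other way. It was at 87.9 and 89.4 RPKM with arsenite, against 57.7 and 59.5 RPKM in untreated cells, and rose by 0.59 ± 0.04 (adjusted p = 1.08e-05). Igf1r was at 5.69 and 6.16 RPKM with arsenite, against 3.70 and 4.05 RPKM in untreated cells, and rose by 0.51 ± 0.08 (adjusted p = 0.00115). For both genes every arsenite library lay above every untreated one. After TMM scaling all 5 calls kept their direction, with log2 differences of 0.71 for Igfbp2, 0.37 for Igf1r, 0.43 for Igf2bp1, -2.19 for Igf2bp2 and -0.44 for Igf2bp3.

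Among the binding proteins Igfbp2 alone passed. It was at 291 and 295 RPKM with arsenite, against 155 and 163 RPKM in untreated cells, a ratio of 1.84 without overlap. The log2 difference was 0.88 ± 0.04 (adjusted p = 1.90e-06). Igfbp3 was at 9.47 and 8.73 RPKM with arsenite and 8.36 and 6.62 RPKM in untreated cells, and the difference of 0.26 ± 0.10 did not pass (95% interval 0.02 to 0.50; adjusted p = 0.0581). Without untreated replicate 1 the difference was 0.41 and passed (adjusted p = 0.00350), and with a filter of at least 5 RPKM the same 0.26 passed (adjusted p = 0.0465). Over all its alternatives the Igfbp3 difference ran from 0.11 to 0.41, with adjusted p-values from 0.00350 to 0.426. Igfbp4 was at 3.18 and 4.10 RPKM with arsenite and 3.28 and 3.23 RPKM in untreated cells, which overlap (0.12 ± 0.11; 95% interval -0.14 to 0.38; adjusted p = 0.371). The sign of this uncalled difference flips under both TMM and quantile scaling. Igfbp5 did not pass the filter of at least 1 RPKM in at least 2 libraries, at 0.0219 and 0.0214 RPKM with arsenite and 0.0528 and 0.0607 RPKM in untreated cells. These are about 6 reads in each arsenite library and 15 and 17 in the untreated ones, so Igfbp5 was left out of the main test. With no filter its difference was -0.05 (adjusted p = 0.197).

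**Figure D3:**
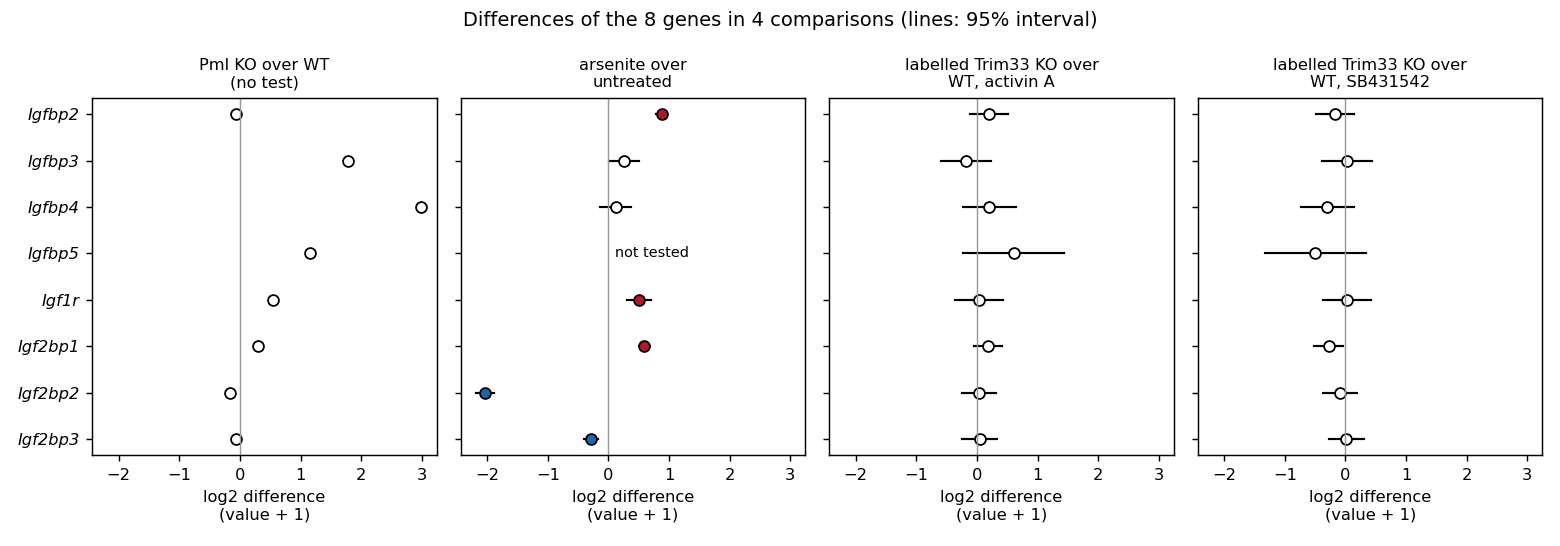
Log2 difference (value + 1) of the 8 genes in 4 comparisons, one panel each, with the KO or arsenite group over WT or untreated; lines are 95% intervals from limma, filled points pass an adjusted p of 0.05 (red higher, blue lower), and the Pml panel carries no test. The Igfbp4 point stands at 2.99 in the Pml panel and at 0.12 with arsenite, while Igf2bp2 stands at -0.17 in the Pml panel and at -2.04 with arsenite.

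Other genes of the pathway were mostly called with arsenite, as were most genes. All 3 testable ligands and receptors rose: Igf2 to 9.48 and 9.86 RPKM with arsenite, against 2.80 and 3.23 RPKM in untreated cells (1.41 ± 0.08 on the log2 scale), Igf2r by 0.24 ± 0.05 and Insr by 0.23 ± 0.09. The calls of Igf2r and Insr were lost after TMM scaling, with adjusted p-values of 0.176 and 0.292, and that of Insr also after quantile scaling. Of 6 other binding proteins and proteases tested, 3 rose and 1 fell. Htra1, a secreted protease that cuts IGF-binding proteins, was at 22.9 and 23.2 RPKM with arsenite, against 4.62 and 3.05 RPKM in untreated cells, and rose by 2.33 ± 0.14. Ctsd rose by 1.21 ± 0.04 and Igfals, the partner of IGFBP3 in plasma, by 0.93 ± 0.09. Stc2 was at 26.8 and 25.8 RPKM with arsenite, against 56.8 and 59.99 RPKM in untreated cells, and fell by 1.12 ± 0.05.

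Of 24 testable signalling genes 14 rose and 3 fell with arsenite. After TMM scaling 9 were higher and 7 lower, and 12 of the 17 calls were kept. Irs2 was at 21.1 and 22.3 RPKM with arsenite, against 4.60 and 4.51 RPKM in untreated cells, and rose by 2.03 ± 0.06. Grb10 was at 57.1 and 60.2 RPKM with arsenite, against 107 and 108 RPKM in untreated cells, and fell by 0.86 ± 0.04. Shc1 rose by 0.84 ± 0.04 and Irs1 by 0.65 ± 0.10, though the Irs1 call was lost after quantile scaling (adjusted p = 0.0633). Irs1 and Grb14, 2 of the 14 that rose, were under 1 RPKM in both untreated libraries and passed the filter only through arsenite. The Grb14 call was also lost after quantile scaling (limma adjusted p = 0.122). Of 10 genes around LIN28, let-7 and HMGA proteins, 3 rose and 2 fell. Lin28a was at 88.0 and 82.2 RPKM with arsenite, against 122 and 115 RPKM in untreated cells, and Lin28b fell by 0.62 ± 0.08. Hmga2 rose by 0.69 ± 0.08, and Zcchc6, a uridylyl transferase of the LIN28 pathway, by 0.46 ± 0.07. Among 6 testable mRNAs reported as bound, 3 rose and 2 fell. They include Mycn, at 80.0 and 73.2 RPKM with arsenite against 198 and 194 RPKM in untreated cells, and H19, at 4.75 and 5.43 RPKM against 0.414 and 1.01 RPKM. Btrc fell by 0.21 ± 0.06. Unless a loss is stated, each call named in these paragraphs had the same sign and passed after TMM and after quantile scaling.

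Between cells labelled Trim33 KO and WT with activin A, no member passed the test. Of all 11914 genes tested 9.43% did, 787 upward (6.61%) and 336 downward (2.82%), or 661 and 468 after TMM scaling. None of the 8 members had an unadjusted p under 0.05 either. Igfbp4 was at 15.0 and 14.2 RPKM in KO and 10.2 and 15.4 RPKM in WT, which overlap, and its log2 difference was 0.21 ± 0.19 (SE; 95% interval -0.23 to 0.64; adjusted p = 0.552). Igfbp3 was at 25.5 and 35.6 RPKM in KO and 31.9 and 36.7 RPKM in WT, again with overlap. Igfbp2 was at 163 and 167 RPKM in KO and 152 and 135 RPKM in WT, without overlap (0.20 ± 0.14; 95% interval -0.12 to 0.52; adjusted p = 0.415). Igf1r was at 2.17 and 2.34 RPKM in KO and 2.07 and 2.29 RPKM in WT, with a 95% interval of -0.36 to 0.42. Igf2bp2 was at 18.8 and 17.0 RPKM in KO and 18.0 and 16.7 RPKM in WT, with a 95% interval of -0.24 to 0.32. Igf2bp3 lay between 24.1 and 27.2 RPKM in all 4 libraries. For these 3 genes the groups overlapped.

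Igfbp5 was uneven between replicates in the Trim33 table. With activin A it was at 2.09 and 0.499 RPKM in the libraries labelled KO, against 0.391 and 0.443 RPKM in those labelled WT. With SB431542 it was at 0.144 and 0.412 RPKM in the libraries labelled KO, against 1.43 and 0.323 RPKM in those labelled WT. The highest values are those of replicate 1 in the KO group with activin A and in the WT group with SB431542, with about 435 and 339 reads, and the other 6 libraries hold 28 to 116. Igfbp5 passed the filter only through these 2 libraries. Trophectoderm markers summed to 171 to 249 RPKM in KO and 132 to 179 RPKM in WT with activin A. With SB431542 they summed to 131 to 173 RPKM in the libraries labelled KO and 165 to 234 RPKM in those labelled WT. Fibroblast and mesenchyme markers summed to 359.5 and 340.2 RPKM in the 2 libraries with high Igfbp5, and to 200.4 to 252 RPKM in the other 6. Primitive endoderm markers summed to 67.0 and 60.5 RPKM in the same 2, and to 34.2 to 45.0 RPKM in the other 6. The part of these markers in the Igfbp5 level was not tested. The difference with activin A was 0.60 ± 0.37 (adjusted p = 0.343) and with SB431542 -0.50 ± 0.37 (adjusted p = 0.448). Igf2 had the same high libraries, at 49.9 and 16.3 RPKM in KO and 12.6 and 9.96 RPKM in WT with activin A. With SB431542 Igf2 was at 10.8 and 10.4 RPKM in the libraries labelled KO and 49.8 and 16.1 RPKM in those labelled WT.

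With SB431542 no member passed either (9.56% of genes did, 3.01% upward and 6.55% downward, or 359 and 780 genes, and 466 and 651 after TMM scaling), and 1 had an unadjusted p under 0.05. That was Igf2bp1, at 93.1 and 96.2 RPKM in the libraries labelled KO and 117 and 113 RPKM in those labelled WT (-0.28 ± 0.10; adjusted p = 0.133). With activin A it was at 120.4 and 114 RPKM in KO and 102 and 104 RPKM in WT (0.18 ± 0.10; adjusted p = 0.306). Groups did not overlap by label in either treatment, and the direction by label was opposite. The difference between the genotype-label effects with activin A and with SB431542, an interaction term, was 0.46 ± 0.15 for Igf2bp1 (95% interval 0.13 to 0.80; adjusted p = 0.0471). It was the 1 member of 8 that passed this test, which 26.3% of genes passed. The term rests on the SB431542 labels that Trim33 contradicts. KO with activin A and WT with SB431542 enter it as positive, where Trim33 was at 2.44 to 2.94 RPKM. The other groups enter it as negative, with Trim33 at 18.3 to 24.6 RPKM. By Trim33 level the term is thus the sum, not the mean, of the low minus high differences with activin A and with SB431542. No treatment-dependent effect of genotype is read from it. Igf2bp1 was at 113 to 120.4 RPKM in the libraries low in Trim33 and at 93.1 to 104 RPKM in those high in it. The call was lost without any 1 of the 8 libraries (adjusted p 0.0569 to 0.163), after TMM scaling (0.35, adjusted p = 0.135) and after quantile scaling (0.50, adjusted p = 0.0531).

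With SB431542 the groups did not overlap for 3 of the 8 members, Igf2bp1, Igf2bp2 and Igfbp4, where 49.2% of genes did not overlap. With activin A they did not overlap for 3 either, Igfbp2, Igfbp5 and Igf2bp1, where 60.7% of genes did not. Igfbp4 was at 11.4 and 12.9 RPKM in the libraries labelled KO, against 16.6 and 13.8 RPKM in those labelled WT (-0.30 ± 0.19; adjusted p = 0.371). Igfbp3 was at 28.1 and 26.2 RPKM in KO and 23.5 and 30.2 RPKM in WT, and Igfbp2 at 166 and 129 RPKM in KO and 163 and 168 RPKM in WT. Igf1r was at 1.91 and 2.63 RPKM in KO and 2.27 and 2.13 RPKM in WT. Igf2bp2 was at 16.5 and 17.3 RPKM in KO and 18.4 and 17.7 RPKM in WT, and Igf2bp3 at 22.8 and 25.7 RPKM in KO and 22.9 and 25.2 RPKM in WT. Activin A against SB431542, averaged over both genotype labels, moved no member at an adjusted p of 0.05, and 0 of the 8 had an unadjusted p under 0.05. By limma, 13 genes passed, or 0.109% of all, and all were higher with activin A. With SB431542 the genotype labels are the ones that Trim33 and Eif2s3y contradict, and both genotype labels enter this mean with equal weight. The treatment labels were not checked here, and this comparison rests on them. The member with the largest difference was Igfbp3, at 25.5 to 36.7 RPKM over the 4 activin A libraries and 23.5 to 30.2 RPKM over the 4 SB431542 libraries (0.25 ± 0.13; 95% interval -0.04 to 0.54; adjusted p = 1.00).

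**Figure D4:**
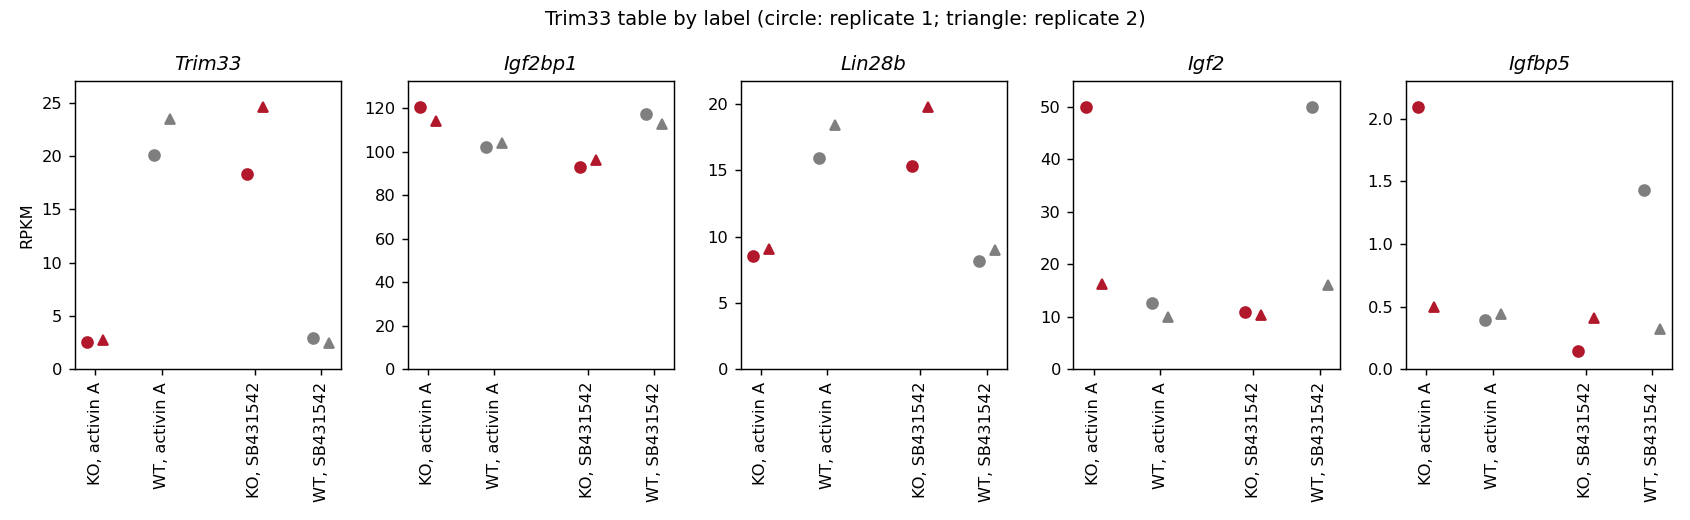
RPKM of Trim33, Igf2bp1, Lin28b, Igf2 and Igfbp5 in the 8 libraries of the Trim33 table (vertical axes from 0), placed by label, red for KO and grey for WT, with replicate 1 as a circle and replicate 2 as a triangle. With SB431542 Trim33 is at 18.3 and 24.6 RPKM under the KO label and at 2.94 and 2.44 RPKM under the WT label, and Igf2 and Igfbp5 are highest in replicate 1 of KO with activin A and of WT with SB431542.

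Other genes of the pathway were tested between the Trim33 labels in the same fit. Of all genes, 9.43% passed with activin A and 9.56% with SB431542, and no count below is read as a result about the pathway. With activin A no ligand, receptor, other binding protein, protease or listed bound mRNA passed, of 3, 7 and 7 tested in those lists. Igf2r lay at 8.27 and 7.54 RPKM in KO and 7.61 and 6.28 RPKM in WT, and Grb10 at 14.8 and 9.83 RPKM in KO and 14.2 and 10.1 RPKM in WT. Of 23 signalling genes 2 rose and 1 fell. Grb2, an adaptor that links receptors to RAS, was at 68.3 and 63.1 RPKM in KO, against 45.1 and 43.0 RPKM in WT, and rose by 0.57 ± 0.11 (adjusted p = 0.0180). Rptor, a subunit of the kinase complex mTORC1, was at 15.3 and 12.8 RPKM in KO, against 9.10 and 8.44 RPKM in WT (0.62 ± 0.16; adjusted p = 0.0453). The gene that fell was Pdk1, the pyruvate dehydrogenase kinase, at 18.3 and 17.5 RPKM in KO against 55.7 and 50.2 RPKM in WT. Around LIN28 and let-7, 1 of 10 genes fell: Lin28b was at 8.55 and 9.04 RPKM in KO, against 15.9 and 18.4 RPKM in WT (-0.89 ± 0.16; adjusted p = 0.0132). With SB431542 the same 4 genes passed with the opposite sign by label, and no other gene of these lists did. Lin28b was then at 15.3 and 19.8 RPKM in the libraries labelled KO and 8.15 and 9.002 RPKM in those labelled WT. All 4 passed in both treatments after TMM and quantile scaling too. In the mean over labels of activin A against SB431542 no gene of these lists passed.

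Across all 16 libraries, with log2 values centred within each table, Igfbp3 and Igfbp4 went together (Pearson r = 0.91), as did Igf1r and Igf2bp1 (r = 0.79), while Igfbp2 and Igf2bp2 ran opposite (r = -0.89). These values describe the libraries and carry no test, because libraries of a group share their condition. The Pml libraries, where Igfbp4 differed by 2.99 and Igfbp3 by 1.78 on the log2 scale, are among the 16. That comparison served to choose the family, so these correlations and the likenesses below support nothing about it. Igfbp2 and Igf2bp2 differed by 0.88 and -2.04 with arsenite, and by -0.07 and -0.17 in the Pml table. Between the Trim33 labels they differed by 0.20 and 0.04 with activin A, and by -0.17 and -0.08 with SB431542. Whether the correlations and likenesses hold within each table was not tested. Among 10868 genes that passed the filter in every table, those most like Igfbp4 were the cytoskeletal genes Csrp1 (r = 0.98), Tpm2 (0.98) and Acta1 (0.96), with Gng12 (0.97), a G protein subunit, and App (0.95), the amyloid precursor gene. Csrp1 was also among the 5 most like Igfbp3 (0.92), after Ier5 (0.93) and Oxct1 (0.92). Igfbp2 was most like Map4k1 (0.98) and Phf19 (0.97), and Igf2bp1 most like Slc4a11 (0.98). Igf2bp2 was most like Cobl (0.98), Slc35f2 (0.97), the growth factor gene Fgf17 (0.97), the retinoic acid receptor gene Rarg (0.96) and Txnip (0.96). Igf1r was most like Arhgef5 (0.96) and Igf2bp3 most like Micu3 (0.91). Igfbp5 was left out because it did not pass the filter in the arsenite table.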

How the data were processed

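RNA-seq of 16 mouse ES cell libraries was analysed from 3 tables. The authors deposited FPKM per gene for the Pml libraries, per the file headers, and RPKM per gene for the arsenite libraries; the values of the Trim33 table, whose unit no source used here names, were read as deposited RPKM from their steps. Per the submitters' processing notes, FastQC 0.11.5, Bowtie2 2.3.3, SAMtools 1.9, featureCounts 2.0.1, DESeq2 and mm10 were used, with roles not given. From every table, 27 date-like names were dropped. Values were tested as log2(value + 1) with limma 3.58.1 in R 4.3.3, separately in each table, on genes that reached 1 in 2 or more libraries, with Benjamini-Hochberg adjustment over all genes tested; the test was checked on simulated data. A fold change on this scale understates that of low genes. All 4 groups of the Trim33 table shared 1 fit. Other steps used Python 3.11.15, pandas 2.3.3 and matplotlib 3.10.9.

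Low values in the arsenite and Trim33 tables were whole reads for 90.98% to 94.7% of values under 20 reads (within 0.05 reads), which gave the depth; in the Pml table only 19.8% to 25.5% were, so its depth is unknown. Intervals cover the spread between libraries. The members, gene lists and marker lists were chosen with earlier results of these data known. Named besides the members were Pml, Trim33 and Eif2s3y, of each list at most 4 called genes per comparison, largest difference first, always Igf1, Igf2, Igf2r, Grb10, Lin28a, Lin28b and Hmga2, and for likeness genes among the 5 with the highest correlation to each member. Pseudocount, filter, scaling, replicate block and leaving out each library were the alternatives.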

Additional observations from a re-analysis of the deposited data

Results flagged for a closer look

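Among the Trim33 libraries 26.3% of all genes passed the interaction term of limma, the genotype-label effect with activin A minus that with SB431542. It rests on SB431542 labels that Trim33 contradicts. By Trim33 level the term sets libraries low in Trim33 against libraries high in it, so no treatment-dependent effect of genotype is read from it. Each value below is the sum, not the mean, of the low minus high differences with activin A and with SB431542. Of the 8 members, Igf2bp1 passed, with a difference of 0.46 ± 0.15 on the log2 scale (SE; adjusted p = 0.0471). Of 3 ligands and receptors tested, Igf2 passed (2.62 ± 0.77, adjusted p = 0.0363). Of 7 other binding proteins and proteases, 3 passed: Igfbp7 (1.48), Stc2 (-1.24) and Ctsd (0.57). Of 23 signalling genes 2 were positive and 4 negative, with the largest differences in Pdk1 (-2.94), Grb2 (1.27), Rptor (1.27) and Sos1 (-0.89). Of 10 genes around LIN28 and let-7, 3 passed, Lin28b (-1.83 ± 0.22, adjusted p = 9.04e-04), Drosha (-0.75) and Lin28a (-0.47 ± 0.15, adjusted p = 0.0466). Of 7 mRNAs reported as bound, 4 were positive and 2 negative, among them H19 (3.47), Ptgs2 (1.78) and Myc (-1.24). The label effect, KO minus WT, was positive with activin A and negative with SB431542 for Igf2bp1 and Igf2, and the reverse for Lin28a and Lin28b. Calls lost after both TMM and quantile scaling were Igf2bp1 and Btrc, the latter 1 of the 4 positive bound mRNAs. Ctsd was lost after TMM scaling alone, and Igfbp7 and Lin28a after quantile scaling alone.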

How the results depend on the processing

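All 5 arsenite calls kept direction and threshold under every alternative run, and the Pml differences kept their sign. Of 522 member alternatives in tested comparisons, 48 changed sign, none of them called. Called genes with activin A numbered 1123, against 1852 in its 4 libraries alone and 185 to 1546 leaving out 1 library. With SB431542 they numbered 1139, against 608 in its 4 libraries alone and 294 to 1036 leaving out 1. For activin A against SB431542 they numbered 13, against 8 without the filter, 23 with a replicate block and 7 to 16 leaving out 1. The interaction called 3129 genes (1853 to 3395 leaving out 1) and 1 member, against 0 after TMM, 0 after quantile scaling and 0 to 1 leaving out 1. Without KO replicate 1 with SB431542 Igfbp2 passed (0.55, adjusted p = 0.0444), and without KO replicate 2 with activin A Igfbp5 passed (1.62, adjusted p = 0.0372), but it reached the filter only in 2 libraries that count as positive in this term, so that call supports nothing. A group left with 1 library is assumed to vary like the others.

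The labels do not say that replicate numbers pair libraries, and with 2 per group they were not taken to. Deviations of same-numbered libraries correlated at 0.02 in the Pml table, -0.04 in the arsenite table, 0.19 with activin A and -0.14 with SB431542. Between treatments they correlated at 0.60 (KO with activin A and WT with SB431542), 0.37 (KO with SB431542 and WT with activin A), 0.21 (WT) and -0.14 (KO). The replicate block gave 4324 calls for Pml, 1584 with activin A, 1557 with SB431542 and 3667 for the interaction, with members' calls unchanged there. For arsenite, by column number, it gave 8188 calls (8221 without it) and 6 members in place of 5, since Igfbp3 passed (0.26, adjusted p = 0.0195). Crossed numbers with SB431542, in its 4 libraries alone, gave 989 calls and no member. Depth limits Igfbp5, and is unknown in the Pml table.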
